A study of Mus musculus with 42 samples.

Results

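Neutrophils carry a set of antimicrobial proteins whose transcripts also appeared in RNA from sorted thymic epithelial cells (TEC), and 8 of the genes for them are described here. They are S100a8, S100a9, Lcn2, Ltf, Camp, Ngp, Ly6g and Mmp25, picked by name from a table of 53465 genes. The genes were selected on their levels in these same libraries, so those levels and the differences between cell types are given as a description and carry no test. The label "neutrophil-type antimicrobial" fits Lcn2, Ltf, Camp, S100a8 and S100a9 by the known function of their proteins, whereas Ly6g is a surface antigen and Mmp25 a protease.

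In neutrophils these proteins act by starving or piercing microbes. S100a8 and S100a9 form the heterodimer calprotectin, which withholds zinc and manganese, while lipocalin 2 (Lcn2) captures bacterial iron carriers and lactoferrin (Ltf) binds iron itself. Medullary TEC (mTEC) are known for switching on genes of many other tissues, partly through the regulator Aire, and display the products to developing T cells so that self-reactive cells can be removed.

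RNA was sequenced from mouse TEC sorted as Epcam+ CD45- cells, 200 cells a library, in 3 subsets. Cortical TEC (cTEC) were UEA- Ly51+, MHCII-low mTEC were UEA+ with low Ly51 and low MHC class II, and MHCII-high mTEC were UEA+ with low Ly51 and high MHC class II. Every subset was sampled in 3 genotypes: Control (5 libraries), KO, a deletion of Ski in TEC by the series' design text (7), and Ski flox Control (2). The labels give no age, strain or Cre line and do not say which libraries share an animal, so the spread between libraries may in part be technical. One Control library of each medullary subset (replicate 2, with 82 and 41828 counts) fell under the minimum of 100000 counts, which leaves 40 libraries with 3217251 to 7068077 counts each and 4 Control libraries in each medullary subset.

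Ski itself was no check of the genotype labels, because the labels do not name the deleted part and the counts cover the whole gene. It stood at 3.36 to 27.1 CPM (counts scaled to a common library total) in the cTEC Control libraries and at 0 to 42.2 in those labelled KO. In MHCII-low mTEC the ranges were 7.83 to 44.5 CPM in Control and 0.523 to 16.9 in KO, and in MHCII-high mTEC 8.21 to 23.0 and 0 to 16.9. The KO minus Control log2 differences of Ski were -0.03 ± 1.07 in cTEC, -1.92 ± 1.12 in MHCII-low and -1.12 ± 1.127 in MHCII-high mTEC (SE), none past the edgeR threshold. Each SE of an edgeR difference given here was worked back from its test statistic and is approximate. Epcam was counted in all 40 libraries, and Aire stood at 279 to 1410 CPM in MHCII-high mTEC. Ptprc, which encodes CD45, the marker of blood cells that the sort excluded, was counted in 37 of the 40 libraries. It averaged 542 ± 251 CPM in cTEC (SD, n = 14), 377 ± 269 in MHCII-low mTEC (n = 13) and 140 ± 136 in MHCII-high mTEC (n = 13). In these bulk libraries a larger share of cells with a transcript and more transcript per cell cannot be told apart.

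The promoters of the genes differ in their letters, and 4 of them are shown because S100a8 and S100a9 were high together in mTEC, Ngp reached the highest level of any of the 8 in a single library, and Mmp25 ran the other way. Each line gives the 140 bases before the RefSeq start (mouse build GRCm38.p6), 5′ to 3′ on the gene's strand, with capitals at matches to a motif. S100a8 lies at chr3:90668931-90669070 on the plus strand, S100a9 at chr3:90695722-90695861 on the minus strand, Ngp at chr9:110419668-110419807 on the plus strand and Mmp25 at chr17:23645270-23645409 on the minus strand.
S100a8: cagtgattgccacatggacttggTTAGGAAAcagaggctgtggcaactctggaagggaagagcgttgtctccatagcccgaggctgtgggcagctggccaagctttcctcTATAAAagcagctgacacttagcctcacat
S100a9: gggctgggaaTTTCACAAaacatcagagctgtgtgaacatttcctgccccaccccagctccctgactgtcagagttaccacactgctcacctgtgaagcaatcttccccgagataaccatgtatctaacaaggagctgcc
Ngp: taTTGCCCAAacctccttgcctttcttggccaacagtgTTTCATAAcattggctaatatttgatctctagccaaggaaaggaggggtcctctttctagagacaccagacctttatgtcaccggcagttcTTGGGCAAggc
Mmp25: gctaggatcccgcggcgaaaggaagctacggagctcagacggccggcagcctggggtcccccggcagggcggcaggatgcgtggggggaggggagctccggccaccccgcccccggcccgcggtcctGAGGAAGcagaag

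The capitals mark 3 motifs here: TTNNGNAA, a core of sites for C/EBP factors, which drive granulocyte genes; GAGGAAG, a core of sites for PU.1, a myeloid factor; and TATAAA, the TATA box. Both strands of the 250 bases before each start were searched. A C/EBP match was found for 6 of the 8 genes (S100a8, S100a9, Ngp, Ltf, Lcn2 and Ly6g), and 36.8% of all 32851 RefSeq windows of that length hold one. A PU.1 match was found for 4 genes (S100a8, Lcn2, Ly6g and Mmp25, against 10.6% of all windows), and TATAAA on either strand for S100a8 and Ly6g (12.4%). In S100a8 the TATAAA starts 30 bases before the RefSeq start. Matches to an NF-kappaB motif (4.11% of all windows) and to the SMAD palindrome GTCTAGAC (0.167%) were found for 0 of the 8 genes. A match of letters is not a bound site.

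S100a8 and S100a9 were the most abundant of the genes in both medullary subsets and near 0 in the cortex. Their genes sit 22.6 kb apart on chromosome 3 (S100a8, ENSMUSG00000056054, 90668978 to 90670035; S100a9, ENSMUSG00000056071, 90692632 to 90695721, GRCm38) with 0 protein-coding genes between them. In cTEC Control, S100a8 was at 0, 1.90, 0, 0 and 0 CPM, and in cTEC KO it ran from 0 to 12.96 with a median of 0.260. MHCII-low mTEC Control libraries held 124, 216, 22.0 and 85.1 CPM, and the 7 KO libraries ran from 1.54 to 819 with a median of 88.4. MHCII-high mTEC Control libraries held 233, 404, 418 and 67.9 CPM, and the KO libraries ran from 279 to 931 with a median of 489. Every one of the 13 MHCII-high libraries thus lay above all 14 cTEC libraries, and 12 of 13 MHCII-low libraries did, the exception being KO replicate 1. The share of all genes with such a separation was not counted.

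S100a9 followed the same order with more zeros in between. In cTEC Control it was at 0, 8.78, 0, 0 and 0 CPM, and in cTEC KO at most 5.55. MHCII-low mTEC Control libraries held 259, 198, 0 and 0 CPM, so 2 of the 4 had S100a8 without its partner, and the KO libraries ran from 0 to 861 with a median of 42.9. MHCII-high mTEC Control libraries held 83.8, 329.8, 122 and 53.7 CPM, and the KO libraries ran from 127 to 452 with a median of 276. All 13 MHCII-high libraries were above the 14 cTEC libraries, against 9 of 13 in MHCII-low mTEC, again without a count over all genes. The Ski flox Control pairs held 171 and 340.2 CPM of S100a8 in the MHCII-low subset, against 667 and 269 in the MHCII-high subset, and S100a9 held 86.0 and 379.8, then 601 and 159.8.

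Over the 9 groups, mean S100a8 was highest in MHCII-high KO at 559 ± 214 CPM (SD, n = 7), followed by MHCII-high Ski flox Control at 468 ± 282 (n = 2) and MHCII-high Control at 281 ± 165 (n = 4). The MHCII-low groups came next, with Ski flox Control at 256 ± 120 (n = 2), KO at 224 ± 290 (n = 7) and Control at 112 ± 81.1 (n = 4). Each neighbouring pair of these 6 groups overlapped in its libraries, so the order of neighbours does not go beyond their spread. Groups further apart did not all overlap, though overlap was not counted over all genes. The MHCII-high KO libraries (279 to 931 CPM) all lay above the MHCII-low Control libraries (22.0 to 216 CPM). The 3 cTEC groups lay below them, and over all genotypes cTEC averaged 1.77 ± 3.65 CPM (n = 14).

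The 2 subunits did not keep one ratio. Among 25 libraries with at least 10 counts of each gene, S100a8 per kilobase of exon divided by S100a9 per kilobase ran from 0.163 to 3.44 with a median of 1.12, and 14 libraries were above 1.

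**Figure D1:**
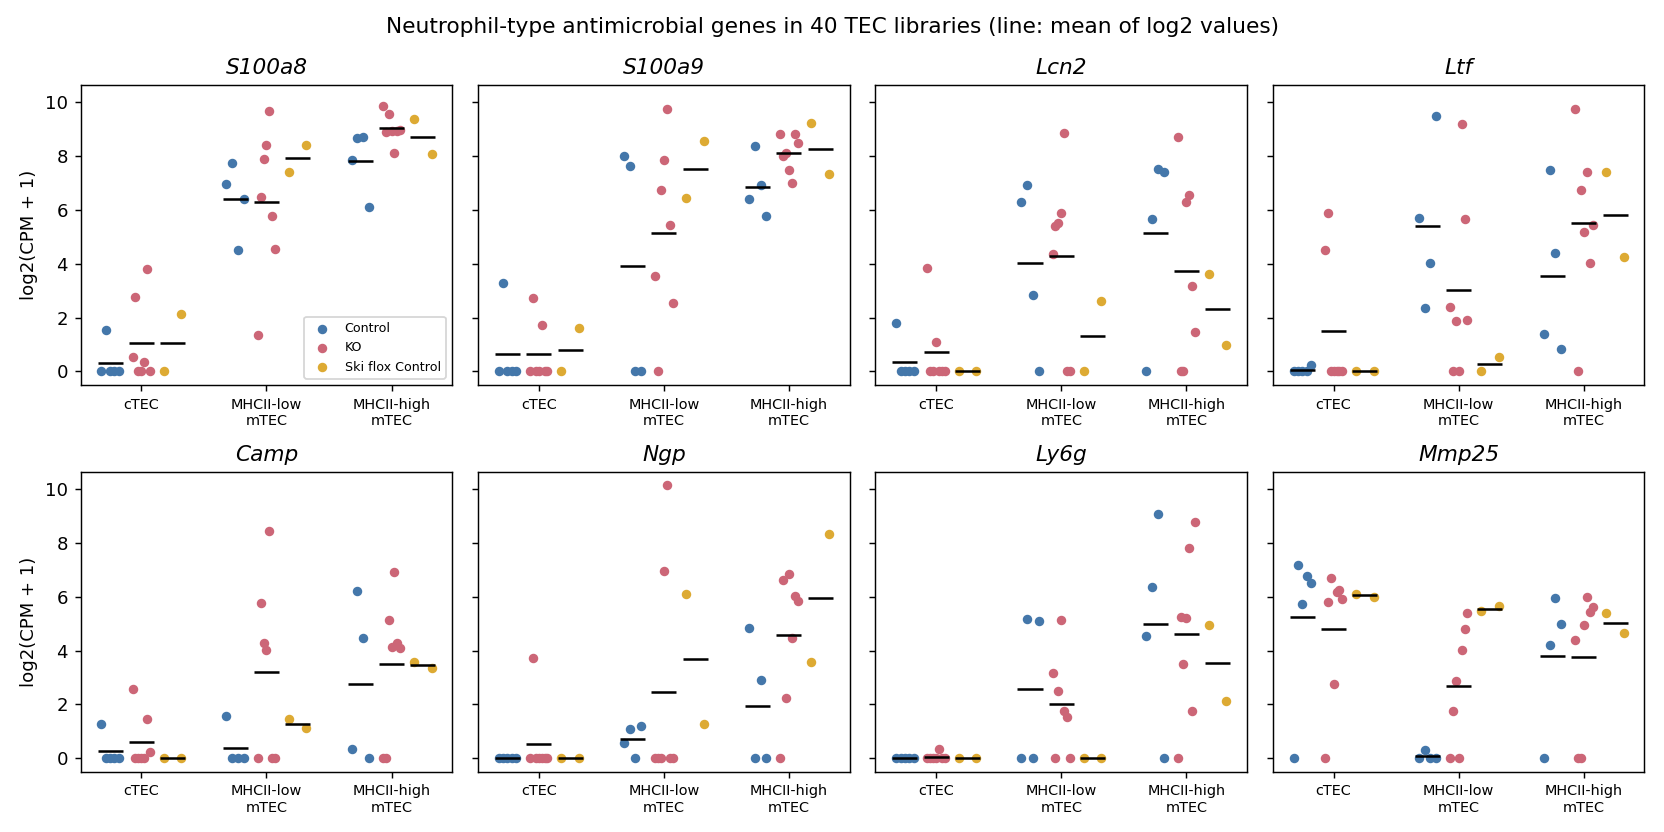
Level of each of the 8 genes as log2(CPM + 1) on the vertical axis, by cell type on the horizontal axis, with 1 point per library coloured by genotype and a line at the mean of the log2 values. S100a8 and S100a9 are near 0 in cTEC and high in MHCII-high mTEC, the 5 genes from Lcn2 to Ly6g are scattered in mTEC, and Mmp25 is highest in cTEC.

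The granule proteins were patchy: each was high in some medullary libraries and near or at 0 in others of the same group. Lcn2 (ENSMUSG00000026822, chromosome 2, 32384633 to 32388252) was counted in 3 of 14 cTEC libraries, 9 of 13 MHCII-low libraries and 10 of 13 MHCII-high libraries. In MHCII-low mTEC Control it was at 78.1, 121, 6.22 and 0 CPM, and in MHCII-high mTEC Control at 0, 49.7, 185 and 169. The KO libraries ran from 0 to 462 CPM (median 41.7) in MHCII-low mTEC and from 0 to 418 (median 8.05) in MHCII-high mTEC. Both ranges hold the Control values.

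Ltf (ENSMUSG00000032496, chromosome 9, 111019271 to 111042767) was at 50.9, 4.07, 15.3 and 723 CPM in MHCII-low mTEC Control and at 1.64, 178, 20.2 and 0.781 in MHCII-high mTEC Control. It ran from 0 to 593 CPM in MHCII-low KO (median 2.79) and from 0 to 856 in MHCII-high KO (median 42.7). In cTEC it was counted in 3 of 14 libraries, of which KO replicates 1 and 2 held 21.8 and 58.6 CPM, the highest level of these granule genes in the cortex. The MHCII-low Control and MHCII-high KO means each rest mainly on 1 library, at 723 and 856 CPM.

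Camp encodes the precursor of the cathelicidin peptide, and Ngp encodes a granule protein related to it. Both lie on chromosome 9 with Ltf (Camp, ENSMUSG00000038357, 109847379 to 109849617; Ngp, ENSMUSG00000032484, 110419747 to 110423012), 570.1 kb apart with 8 protein-coding genes between, and a further 596.3 kb and 20 such genes separate Ngp from Ltf. Camp was at 1.97, 0, 0 and 0 CPM in MHCII-low mTEC Control and at 0.274, 73.7, 21.3 and 0 in MHCII-high mTEC Control. Its KO libraries ran from 0 to 346 CPM (median 15.3) in MHCII-low mTEC and from 0 to 120 (median 16.7) in MHCII-high mTEC. In MHCII-low mTEC 4 of 7 KO libraries lay above all 4 Control libraries. The same held for 5 of 7 with Mmp25 in that subset, and in MHCII-high mTEC for 6 of 7 with S100a8 and 4 of 7 with Ngp. For Ltf in MHCII-low mTEC 4 of 7 KO libraries lay below all Control libraries. Such counts were not made over all genes.

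Ngp was at 0.491, 1.1301, 0 and 1.3045 CPM in MHCII-low mTEC Control and at 27.4, 0, 6.58 and 0 in MHCII-high mTEC Control. Among MHCII-low KO libraries 5 of 7 were at 0, with the other two at 122 and 1130.5 CPM, the latter the highest value of any of the 8 genes. MHCII-high KO libraries ran from 0 to 113 CPM (median 56.5), and the Ski flox Control pairs held 67.3 and 1.38 in the MHCII-low subset, against 10.8 and 319.6 in the MHCII-high one. No count of Ngp was found in the 5 cTEC Control libraries. Against a limit of 3 counts over that group, pooled Ngp was at least 7.20-fold higher in MHCII-low mTEC Control. In MHCII-high mTEC Control it was at least 69.9-fold higher, and 18.1-fold without MHCII-high replicate 1. The MHCII-low bound rests on 12 counts in all and was 5.45-fold without cTEC replicate 3. Both bounds cover counting error only and leave out the spread between libraries. The fitted log2 differences were 4.88 ± 3.28 and 8.37 ± 3.27 (SE), and edgeR called neither.

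Ly6g, the surface antigen by which mouse neutrophils are usually sorted, had 1 count in all over the 14 cTEC libraries. It lies on chromosome 15 (ENSMUSG00000022582, 75155240 to 75159126) in the multicopy Ly6 family, and reads shared with a near copy could have been split between genes, so its counts are less certain. MHCII-low mTEC Control libraries held 0, 35.3, 0 and 33.7 CPM, and MHCII-high mTEC Control libraries held 22.2, 81.5, 541 and 0. KO libraries ran from 0 to 34.5 CPM (median 2.35) in MHCII-low mTEC and from 0 to 444 (median 36.1) in MHCII-high mTEC. With no count in cTEC Control, Ly6g was at least 171-fold higher in MHCII-low and at least 1465-fold higher in MHCII-high mTEC Control. In a check added after the data were seen, the second bound was 356-fold without MHCII-high replicate 4, which held most of the counts, and without 1 MHCII-low library at a time the first was 106-fold to 229-fold. It was counted in 7 of 13 MHCII-low and 11 of 13 MHCII-high libraries.

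Mmp25, a membrane-anchored metalloprotease of leukocytes (ENSMUSG00000023903, chromosome 17, 23628311 to 23645277), ran against the other 7 genes. In cTEC Control it was at 0, 145, 52.5, 108 and 91.4 CPM, and in cTEC KO it ran from 0 to 103 with a median of 59.0. MHCII-low mTEC Control libraries held 0, 0.226, 0 and 0 CPM, and MHCII-high mTEC Control libraries 0, 17.3, 61.2 and 31.0. Of the 7 MHCII-low KO libraries, replicates 1 and 4 were also at 0 and the highest was at 41.5 CPM (median 6.23), and the Ski flox Control pair held 42.9 and 49.3.

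Mmp25 also moved with the order of the libraries. Ordered by their library numbers, the libraries split into 19 early and 21 late ones, a split that appears in no label and was known from earlier results of these data. Mmp25 averaged 51.5 ± 55.8 CPM in early and 76.4 ± 17.3 in late cTEC libraries (SD, n = 7 each). Early MHCII-low mTEC libraries averaged 1.48 ± 2.51 (n = 6) and late ones 25.1 ± 20.5 (n = 7), while the MHCII-high averages were 11.3 ± 13.1 (n = 6) and 44.4 ± 14.4 (n = 7). Within the late MHCII-low libraries, 2 Control libraries were at 0, 3 KO libraries held 15.1, 27.0 and 41.5 CPM, and both Ski flox Control libraries were higher still. The early MHCII-low libraries, Control and KO, held at most 6.23 CPM.

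**Figure D2:**
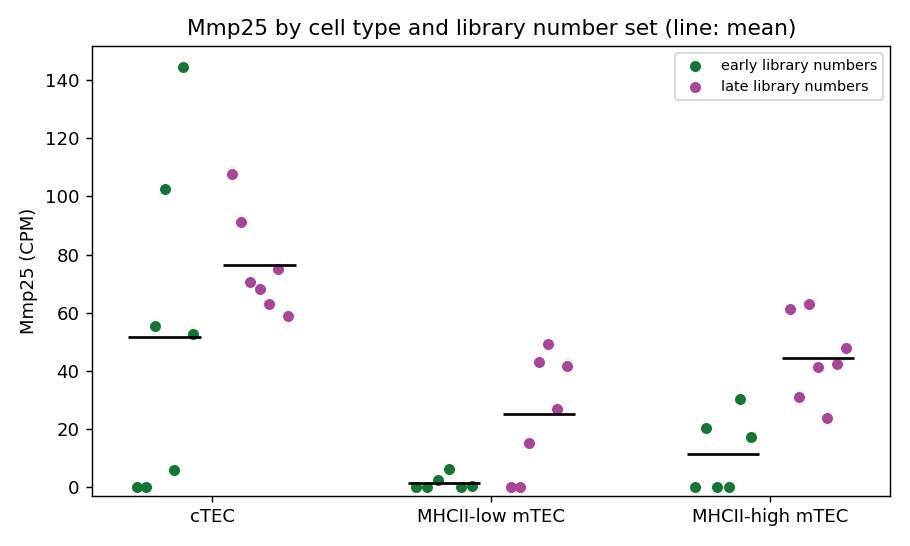
CPM of Mmp25 on the vertical axis by cell type on the horizontal axis, 1 point per library, with early library numbers in green, late ones in purple and a line at each mean. Late libraries average higher in each cell type, with the lowest means, 1.48 and 25.1 CPM, in MHCII-low mTEC.

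Per kilobase of exon, which allows levels of different genes to be compared, MHCII-high mTEC held 662 CPM per kilobase of S100a8 and 508 of S100a9 on average (n = 13). The rest followed at 117 for Ly6g, 45.3 for Ngp, 35.9 for Ltf, 32.6 for Camp, 29.8 for Lcn2 and 5.49 for Mmp25. In MHCII-low mTEC S100a9 (321 per kilobase) and S100a8 (280.0) again led, and Ly6g stood at 9.81. In cTEC the order turned, with Mmp25 first at 12.1 per kilobase and each of the other 7 genes at most 2.57 per kilobase. The SD over libraries was smaller than the mean for S100a8 (331), S100a9 (318) and Mmp25 (4.09) in MHCII-high mTEC and for Mmp25 (7.87) in cTEC. For each other gene and subset it was larger than the mean, as for S100a8 (317) and S100a9 (463) in MHCII-low mTEC. Neighbouring means in each order lay within the sum of their SDs.

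One library was high for 6 of the 8 genes together. In MHCII-low mTEC KO replicate 5, S100a8 stood at 819 CPM, S100a9 at 861, Ngp at 1130.5, Ltf at 593, Lcn2 at 462 and Camp at 346, each the highest in its group, while Ly6g stood at 2.35 and Mmp25 at 15.1. The same library held 23 of 26 other neutrophil genes with a count, among them Retnlg at 95.1 CPM, Mmp8 at 83.1, the G-CSF receptor Csf3r at 17.6, the chemokine receptor Cxcr2 at 13.9 and the integrin Itgam at 13.1, with Ptprc at 408. The other 39 libraries held 4 to 18 of the 26. In summed level of the 26 genes, at 702 CPM, it stood below replicates 2, 3 and 4 of the same group (741, 852 and 869). Without it the MHCII-low KO mean fell from 224 ± 290 to 125 ± 136 CPM for S100a8, from 179.7 ± 311 to 66.2 ± 90.3 for S100a9, from 179 ± 422 to 20.4 ± 49.9 for Ngp and from 93.3 ± 221 to 10.004 ± 19.8 for Ltf (SD, n = 7 and 6). The part of other cells in this library's values was not tested.

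**Figure D3:**
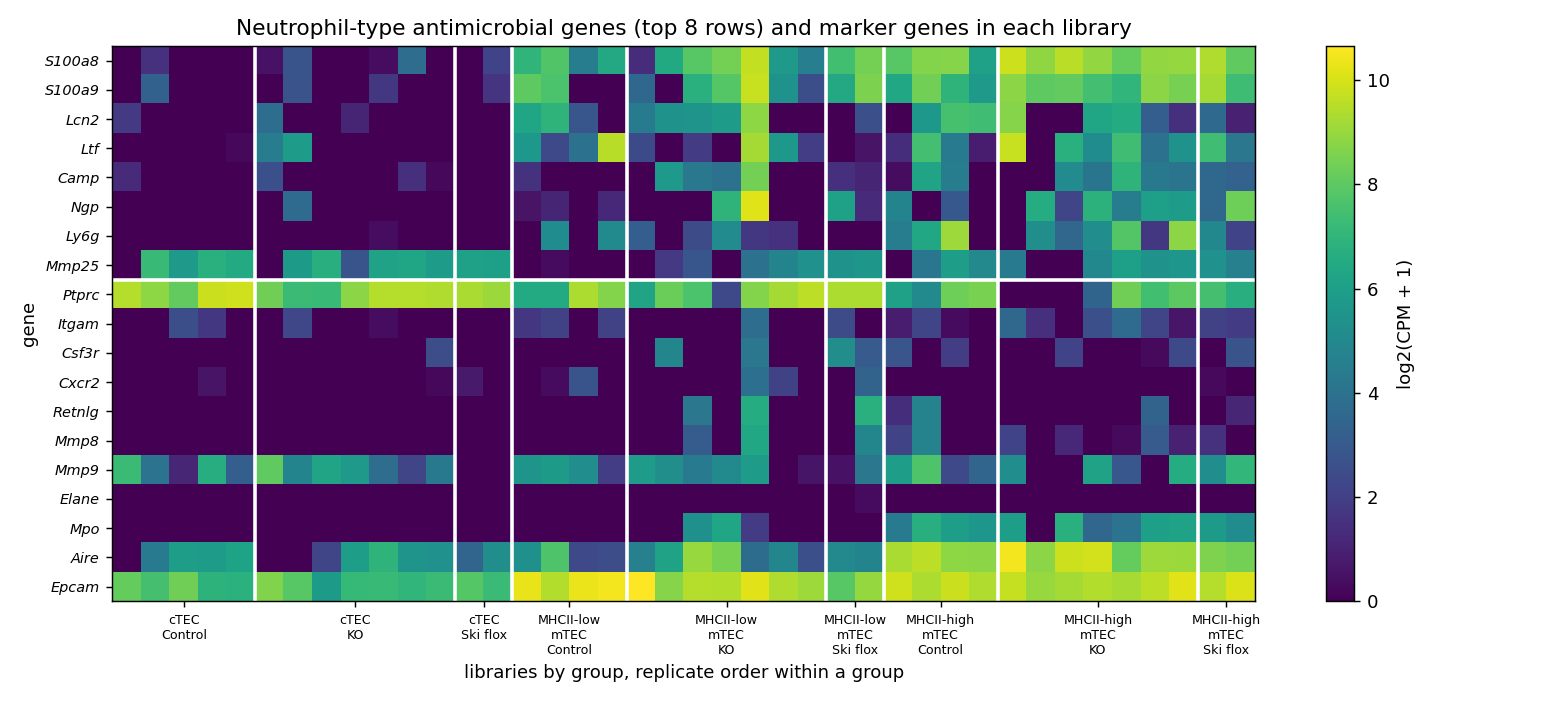
Colour shows log2(CPM + 1) of each gene (rows) in each of the 40 libraries (columns, grouped by cell type and genotype), with the 8 genes above the white horizontal line and Ptprc, neutrophil markers, Aire and Epcam under it. MHCII-low mTEC KO replicate 5 is the column in which Ngp reaches 1130.5 CPM and Retnlg, Mmp8, Csf3r and Cxcr2 are counted as well.

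Ptprc is 1 marker of blood cells, and its level is given beside these genes. In MHCII-high mTEC KO replicates 1, 2 and 3 no read of Ptprc was counted, which allows up to 0.650, 0.891 and 0.802 CPM. Other blood cell genes were counted in them: 12 pan-leukocyte genes, Ptprc among them, summed to 2267, 3929.7 and 3062 CPM, 12 macrophage and dendritic genes to 2035, 1401 and 1503, and 12 thymocyte genes to 1282, 201 and 53.2. The other neutrophil genes summed to 817, 955 and 1242 CPM in these libraries, the last being the highest such sum of any library. The same libraries held 931, 471 and 753 CPM of S100a8 and 452, 256 and 276 of S100a9. Ltf stood at 856, 0 and 107 CPM there, Lcn2 at 418, 0 and 0, Ly6g at 0, 37.4 and 10.4, and Ngp at 0, 96.5 and 3.74. Conversely, cTEC libraries held 150 to 938 CPM of Ptprc with S100a8 at 0 to 12.96.

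Across the 40 libraries, Pearson's r of log2(CPM + 1) with Ptprc was -0.52 for S100a8, -0.54 for S100a9, -0.36 for Ly6g, -0.33 for Ngp, -0.31 for Ltf, -0.28 for Lcn2 and -0.19 for Camp, and 0.42 for Mmp25. These points share cell type and library set, so r is a description only. Within MHCII-high mTEC (n = 13) r was -0.55 for S100a8, -0.33 for S100a9, -0.14 for Ltf, 0.11 for Ngp, 0.19 for Lcn2, 0.29 for Ly6g, 0.30 for Camp and 0.66 for Mmp25. Within MHCII-low mTEC (n = 13) it was -0.62 for Ly6g, -0.53 for Lcn2, -0.32 for S100a9, -0.23 for Ngp, -0.17 for Camp, -0.10 for S100a8, 0.24 for Ltf and 0.62 for Mmp25. In cTEC the r of Mmp25 was 0.03 (n = 14), with -0.57 in early and 0.84 in late libraries (n = 7 each). Ptprc itself differed between the library sets: it ran from 4.18 to 303 CPM in early and 408 to 773 in late MHCII-low mTEC libraries, and from 0 to 67.9 and 104 to 362 in MHCII-high mTEC, with no overlap. Within the early and the late set over all cell types (n = 19 and 21, a split of this relation made after the data were seen), r was -0.75 and -0.70 for S100a8, -0.75 and -0.68 for S100a9, and 0.21 and 0.11 for Mmp25. With the cell types pooled, the negative r of the S100 pair was thus larger in size within each set than over both, and the positive r of Mmp25 was smaller. Within 1 cell type and 1 set (n = 6 or 7), r ran from -0.84 to -0.18 for S100a8 and from -0.65 to -0.10 for S100a9. For Lcn2, Ltf, Camp, Ngp, Ly6g and Mmp25 it took both signs. It was 0.82 for Lcn2 in late MHCII-high and -0.89 for Ltf in late MHCII-low mTEC libraries.

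**Figure D4:**
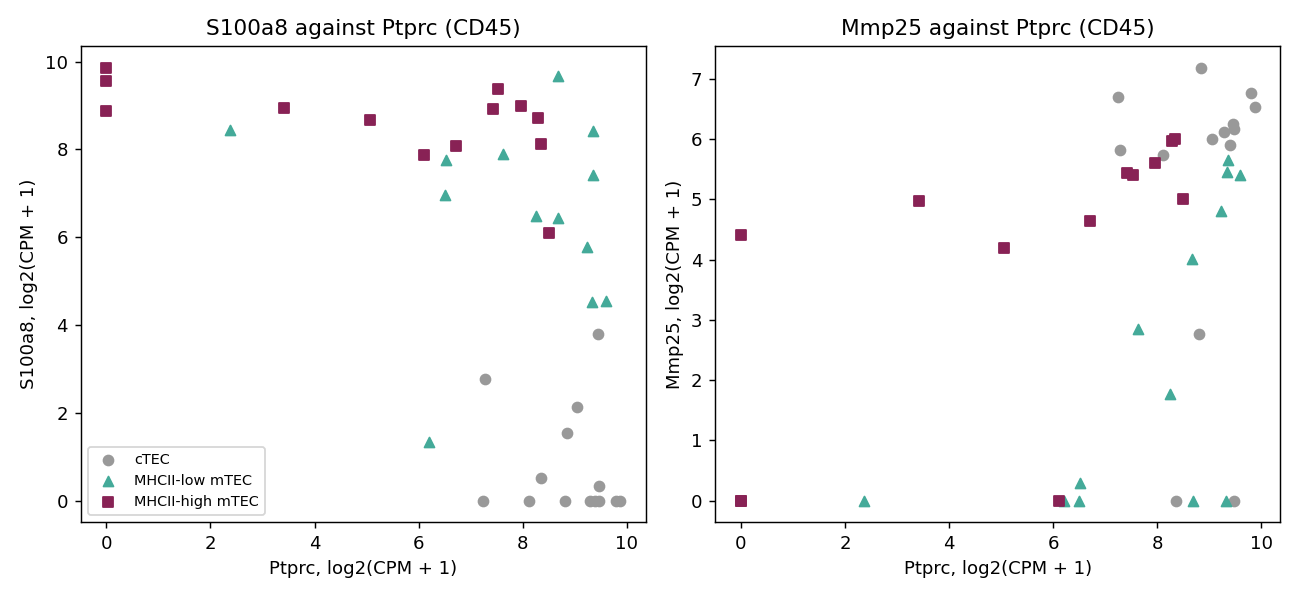
Level of S100a8 (left) and Mmp25 (right) against Ptprc, all as log2(CPM + 1), 1 point per library with the cell type given by shape and colour. Of the 3 libraries at 0 for Ptprc, all MHCII-high mTEC, S100a8 reads 471 to 931 CPM, and the cTEC libraries lie at high Ptprc with little S100a8.

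The levels of other cell types' marker genes stood beside these as follows, and their part in the results was not tested. Of 26 other neutrophil genes, 13 had no count in any cTEC library, and Elane, neutrophil elastase, was counted in 1 of 40 libraries. The summed level of the 26 ran from 256 to 684 CPM in cTEC, 137 to 869 in MHCII-low and 590 to 1242 in MHCII-high mTEC. A sum of 12 pan-leukocyte genes ran from 2805 to 9393 CPM in cTEC, 1188 to 10004 in MHCII-low and 2267 to 4849 in MHCII-high mTEC. Macrophage and dendritic genes (12) ran from 242 to 2932, 472 to 10125 and 967 to 3209 CPM, and thymocyte genes (12) from 506 to 5707, 112 to 3921 and 53.2 to 1282. B cell genes (8) ran from 111 to 15143, 146 to 17268 and 121 to 493 CPM in the same order of subsets, and erythroid genes (7) from 0 to 390, 0 to 110 and 4.41 to 629. Endothelial genes (7) ran from 15.02 to 490.1, 7.62 to 939 and 1.48 to 77.7 CPM, fibroblast genes (7) from 0.413 to 6110, 1.09 to 502 and 29.995 to 178, and TEC genes (14) from 1080 to 12365, 1232 to 10617 and 3994 to 7422.

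The question put by the design, whether loss of Ski in TEC changed the cells, was asked of these genes within each subset with edgeR's quasi-likelihood test over 23040 genes, with a Benjamini-Hochberg adjusted threshold of 0.05. All 8 genes passed the filter on low counts. Of them 0 were called between KO and Control in cTEC, MHCII-low or MHCII-high mTEC, where 0% of all genes tested were called. At an unadjusted p under 0.05 the fit gave 10.6%, 7.11% and 6.88% of all genes in these comparisons (2443, 1639 and 1586), among them S100a8 and Ltf in cTEC, Camp, Ngp and Mmp25 in MHCII-low mTEC and 0 of the 8 in MHCII-high mTEC. DESeq2 called Ltf and Ngp in cTEC, Mmp25 in MHCII-low and 0 of the 8 in MHCII-high mTEC, where it called 2.26%, 0.994% and 0.634% of all genes, and limma voom called 0 of the 8 in each. In cTEC, Ngp was counted only in KO replicate 2 (12.2 CPM). Ltf was counted there in KO replicates 1 and 2 and, with 1 count, in Control replicate 5. In KO against Control, S100a8 differed by 2.68 ± 1.303 on the log2 scale in cTEC (SE), 1.003 ± 1.14 in MHCII-low and 0.99 ± 1.14 in MHCII-high mTEC. Mmp25 differed by 7.28 ± 2.21 in MHCII-low mTEC against 0.09 ± 1.38 in MHCII-high mTEC, a gap that did not pass the threshold as a difference of KO effects (0% of all genes were called). The MHCII-low value is fitted against a Control group with 1 count in all. Among late libraries alone Mmp25 was 1 of 5 genes called in MHCII-low mTEC, with both Control libraries at 0.

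Against Ski flox Control, 0 of the 8 genes were called by edgeR in each subset, as were 0% of all genes, with Ly6g and Ltf in MHCII-low mTEC at an unadjusted p under 0.05, as were 6.12% of all genes. DESeq2 called Camp, Ltf and Ngp there in cTEC, where it called 4.48% of all genes and where the Ski flox Control libraries held no count of these genes. Those comparisons share the KO libraries with the ones above. Between Ski flox Control and Control, which share libraries with both, 0 of the 8 genes and 0% of all genes were called by edgeR, with Ly6g, Ltf and Mmp25 in MHCII-low mTEC at an unadjusted p under 0.05, as were 5.53% of all genes. DESeq2 called Camp and Ltf in cTEC (4.12% of all genes) and Ltf and Mmp25 in MHCII-low mTEC (3.36%), and limma voom called Mmp25 in MHCII-low mTEC (0.456%). Both cTEC calls lie near 0. The Control libraries held 1 count of Ltf in all, in replicate 5, and 8 counts of Camp, all in replicate 1. Mmp25 stood at 42.9 and 49.3 CPM in MHCII-low Ski flox Control against 0 to 0.226 in Control, and all Ski flox Control libraries are late ones.

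Between the cell types the genes had been selected on their levels, so the calls are a description. Between MHCII-low mTEC and cTEC among Control libraries, S100a8 (log2 difference 8.01 ± 1.58, SE) was called higher and Mmp25 (-9.86 ± 2.42) lower, 2 of 8, where 0.773% of all genes were called. Between MHCII-high mTEC and cTEC, S100a8 (9.33 ± 1.65) and Ly6g (12.62 ± 2.79) were called higher, where 1.11% of all genes were. The Ly6g value is fitted against a group with no count, for which the bounds above hold, and the Mmp25 value rests on 1 count in MHCII-low Control. These 2 comparisons share the cTEC libraries.

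The KO libraries are not those compared in Control, but all groups shared the same fit, with its filter, scaling and estimate of spread. Among KO libraries, S100a8 (6.33 ± 1.197), S100a9 (7.41 ± 1.69) and Ly6g (7.03 ± 2.01) were called higher in MHCII-low mTEC than in cTEC, where 5.68% of all genes were called. S100a8 (7.65 ± 1.27), S100a9 (8.15 ± 1.74) and Ly6g (10.90 ± 2.21) were called higher in MHCII-high mTEC, where 14.7% of all genes were. The median log2 difference over the 8 genes was 6.30 and 7.99 in the Control comparisons and 6.13 and 5.12 in the KO comparisons, beside 0.14, 0.25, 0.25 and 0.28 over all genes. Without MHCII-low KO replicate 5 the MHCII-low difference among KO libraries was 5.48 for S100a8, 5.96 for S100a9, 3.85 for Camp, 3.69 for Lcn2, 3.56 for Ngp and -0.19 for Ltf, the last from 3.03 with it. Between the medullary subsets edgeR called 0 of the 8 genes in Control (0% of all genes) and 0 in KO (0.0174%). At an unadjusted p under 0.05 it gave Camp and Mmp25 in Control, with 1720 of 23040 genes (7.47%), and Ly6g in KO, with 4021 (17.5%). DESeq2 called Mmp25 in Control, where it called 0.872% of all genes.

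Of the 10 calls between a medullary subset and cTEC, 9 were lost among early libraries alone, 6 among late ones and 5 in fits of the compared groups alone. The last count includes the Ly6g calls, because Ly6g was not tested in those fits. Of the calls tested there, those of S100a8 and S100a9 in MHCII-low mTEC among KO libraries were lost. In the fit of the KO groups alone, 0 of the 8 genes were called between MHCII-low mTEC and cTEC, with Ly6g not tested. The Mmp25 call among Control libraries was lost without any 1 of the 4 MHCII-low libraries or of cTEC replicates 2, 3, 4 and 5. The Ly6g call in MHCII-high mTEC among Control libraries was lost without MHCII-high replicate 4 or any 1 of the same cTEC replicates. The Ly6g call in MHCII-low mTEC among KO libraries was lost without MHCII-low replicate 1 or 4 or any 1 of the 7 cTEC libraries, and also with limma voom, with Ptprc as a covariate and among early or late libraries alone.

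Antimicrobial genes of epithelia were looked at beside them, with counts to be read against the share of all genes that were called higher: 0.703% and 1.07% in MHCII-low and MHCII-high mTEC over cTEC among Control libraries, and 5.19% and 12.9% among KO libraries. Of 22 such genes, 4 rose in MHCII-low and 7 in MHCII-high mTEC over cTEC among Control libraries, and 12 and 15 did among KO libraries, with 0 lower in each. Their median log2 difference was 6.41, 5.97, 3.78 and 4.64. Ccl20, a chemokine that also kills bacteria, had medians of 0 CPM in cTEC Control, 314 in MHCII-low and 455 in MHCII-high mTEC Control, and rose by 9.45 ± 1.86 (edgeR adjusted p = 0.0105) and 9.37 ± 1.85 (edgeR adjusted p = 0.00739) on the log2 scale. Pglyrp1, a peptidoglycan-binding protein, had medians of 24.3, 352 and 196 CPM and rose by 3.86 ± 0.70 and 2.96 ± 0.67. Whether neutrophils also express Pglyrp1 or other genes of this list was not examined. Reg3g, a lectin that kills Gram-positive bacteria, had medians of 3.97, 1579.8 and 1746 CPM in the KO groups and rose by 5.35 ± 1.36 and 5.43 ± 1.37. Lyz1, a lysozyme of Paneth cells, rose by 4.87 ± 1.41 in each medullary subset among KO libraries.

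Calls of other neutrophil genes are read against the same shares of all genes. Of 23 tested, 0 and 2 were called higher in MHCII-low and MHCII-high mTEC over cTEC among Control libraries, and 2 and 5 among KO libraries, again with 0 lower, and their median log2 differences were 0.17, 1.11, 5.41 and 3.04. Olfm4, a secreted glycoprotein of neutrophils and of intestinal stem cells, had medians of 0 CPM in cTEC Control and 171 in MHCII-high mTEC Control, with a rise of 5.58 ± 1.26 (edgeR adjusted p = 0.0221). Mpo, myeloperoxidase of primary granules, had no count in cTEC and ran from 20.8 to 105 CPM in the 4 MHCII-high Control libraries (adjusted p = 0.0433). Among KO libraries, Cd177, a neutrophil surface glycoprotein, and Chil3 were also called in MHCII-high mTEC. Of 12 pan-leukocyte genes 0 were called by edgeR in any of these 4 comparisons, with 2, 4, 1 and 3 at an unadjusted p under 0.05, where 17.9%, 21.2%, 26.1% and 32.6% of all genes were.

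Relatives of the genes gave mixed counts in those 4 comparisons, in the order MHCII-low and MHCII-high mTEC over cTEC in Control, then in KO. Of 14 other S100 genes 1, 3, 2 and 7 rose, among them S100g, a calcium-binding protein of the gut, with medians of 0.695 CPM in cTEC Control and 201 in MHCII-high mTEC Control. In the Ly6 family 0, 0, 3 and 3 of 13 rose, including Ly6g6c in both KO comparisons. Of 9 other metalloproteinases 0 rose, and Mmp2, a gelatinase, was lower in MHCII-high mTEC among KO libraries (log2 difference -4.30 ± 1.16). At an unadjusted p under 0.05 edgeR gave 4, 3, 5 and 3 of these 9 in either direction, with all genes as given for the pan-leukocyte list. Known receptors and partners of the proteins gave 0 edgeR calls among 12, with 0, 1, 2 and 4 at an unadjusted p under 0.05 (all genes as given for the pan-leukocyte list), and the most abundant, Bsg, a receptor of S100a9, differed by 0.48 ± 0.24, 0.24 ± 0.24, 0.36 ± 0.19 and 0.13 ± 0.19.

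For regulators tied to these genes in granulocytes or inflamed epithelium, calls are read against the same shares of all genes called higher. Among KO libraries these were 5.19% in MHCII-low and 12.9% in MHCII-high mTEC. Of 7 granulocyte transcription factors tested, Klf5, which epithelia also express, rose in MHCII-low mTEC among KO libraries (4.04 ± 1.04, edgeR adjusted p = 0.0214). Of 14 interleukin 17 and NF-kappaB genes, 1 rose in MHCII-low mTEC of KO (Il17rc) and 2 in MHCII-high mTEC (Il17rc and Nfkbia). At an unadjusted p under 0.05 edgeR gave 3, 4, 3 and 5 of these 14, in the order of comparisons above. It gave 2, 1, 2 and 2 of the 7 factors, with all genes as given for the pan-leukocyte list. Of 14 cornified and keratinocyte-like genes 2, 2, 5 and 7 rose, Cnfn and Krt1 in MHCII-low mTEC Control, and of 10 microfold-like genes 2, 2, 5 and 5 rose, with Gp2 and Ccl20 in each.

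Genes with the pattern most like each of the 8 over the 40 libraries were ranked by Pearson's r of log2(CPM + 1), among 23034 genes. S100a8 was nearest to Abca13 (r = 0.90), Cib1 (0.90) and S100a9 (0.88), and S100a9 to S100a8 (0.88), Cib1 (0.82) and Mei4 (0.82). The nearest to Ly6g were Alox12b (0.79), Cr2 (0.79) and Gpx6 (0.77), and to Lcn2 Wdr72 (0.84), Myo7b (0.82) and Tinag (0.75). Camp had Gnmt (0.72), Iapp (0.68) and Dcaf12l1 (0.67), Ltf had Izumo1 (0.70), Onecut2 (0.68) and Cxcl17 (0.67), and Ngp had Cacna2d4 (0.70) and B230209E15Rik (0.68). Mmp25 was nearest to Anxa3, Syngr2 and Vhl (0.83 each). With Aire, r was 0.63 for S100a8 and 0.65 for S100a9, and 0.16 for Ltf. The median r of S100a8 with the 23 other neutrophil genes was 0.29.

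Summed marker lists were compared between KO and Control within each subset by two-sided exact permutation tests of log2(summed CPM + 1), 27 in all, of which 0 passed after Benjamini-Hochberg adjustment. The lowest p was for endothelial genes in MHCII-high mTEC (exact p = 0.0242, adjusted p = 0.655, log2 difference -1.51, n = 7 and 4). For the other neutrophil genes the differences were -0.05, 0.31 and 0.05 in cTEC, MHCII-low and MHCII-high mTEC, and for the pan-leukocyte genes -0.36, 0.56 and 0.08. The smallest p these tests can give is 0.00253 for 7 against 5 libraries and 0.00606 for 7 against 4.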

How the data were processed

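The authors deposited whole-number read counts for each Ensembl gene with no scaling, made from SMART-Seq v4 cDNA and Nextera XT libraries per the labels' protocols. This chemistry marks neither strand nor molecule. The submitters' processing notes list SAMtools 1.2, HTSeq 0.4.1, FastQC 0.11.3 and Picard 1.134 with build GRCm38. Aligner, annotation release and strand setting: not given in the sources used here. Of 53465 identifiers 53274 matched GENCODE M21 and 191 did not.

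The members, gene lists and the rule for named genes were chosen with earlier results of these data known. That rule names the 8 genes, Ptprc, Ski, up to 4 passing genes of a list (or its 2 most abundant) and the 3 genes most like each member. One gene that this rule names is not reported here. Groups come from the cell type and genotype labels, and replicate numbers only name libraries. CPM used TMM-normalised library sizes. The test of each gene was that of edgeR 4.0.16 under R 4.3.3 (glmQLFit, glmQLFTest, filterByExpr, 9 groups in 1 model, biological coefficient of variation 1.40), after checks on simulated data. The SE of an edgeR log2 difference was its size divided by the square root of the test's F statistic. It is approximate, and least reliable where the difference is near 0. Exact permutation tests used SciPy 1.17.1. Alternatives were RLE factors, other filters, DESeq2, limma voom, all 42 libraries, library sets, Ptprc as a covariate, pooled controls and leaving out single libraries. PCR reads without molecular identifiers are not independent molecules, so limits from a count of 0 (3 counts) cover counting error only.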

Additional observations from a re-analysis of the deposited data

Results flagged for a closer look

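Within groups of at least 4 libraries, 46 gene and group combinations with a spread were examined for a single library far from the rest (a gap to its neighbour over Dixon's critical value), and 11 were found. Chance flags about 1 in 20 groups of normally distributed values, a rate that does not hold where the other libraries held no count, as in 9 of the 11. In cTEC Control, replicate 2 stood high for S100a8 (1.90 CPM) and S100a9 (8.78 CPM), replicate 1 for Camp (1.41 CPM) and Lcn2 (2.46 CPM), and replicate 5 for Ltf (0.177 CPM), while replicate 1 stood low for Mmp25 at 0 CPM. In cTEC KO, replicate 1 stood high for Lcn2 (13.5 CPM), replicate 2 for Ngp (12.2 CPM) and replicate 5 for Ly6g (0.260 CPM). In MHCII-low mTEC Control, replicate 1 stood high for Camp (1.97 CPM) and replicate 3 for Mmp25 (0.226 CPM).

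A signal was also present in a library outside the comparisons. MHCII-high mTEC Control replicate 2, left out for its 41828 counts, held 15 counts of S100a8 and 39 of S100a9, each above the 3 counts that a count of 0 allows.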

How the results depend on the processing

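No paired analysis was made, because the labels give no replicate numbers and do not say which libraries share an animal. Consecutive library numbers run through cTEC, MHCII-low and MHCII-high mTEC of the same genotype. A pairing by that order was not tested. The choice of the 8 genes fixed the direction of their called differences, so a kept sign says nothing of stability. Of 414 alternatives for the summed marker lists 0 passed the threshold (lowest adjusted p 0.15). Counts below are of the 8 genes or of all genes called, and the cause of each change was not tested. Fits of the compared groups alone did not test Ly6g in the comparisons where it had been called. Reads of Ly6 copies and counts near 0 limit Ly6g, Ngp and Mmp25 most, and counts near 0 also limit Camp and Ltf between the cTEC control groups.

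With DESeq2, KO against Control gave 2 of the 8 genes and 520 of all genes in cTEC, 1 and 229 in MHCII-low and 146 of all genes in MHCII-high mTEC, and limma voom gave 10, 11 and 14 of all genes. Without a count filter and with one of 10 CPM in 5 libraries it was 2 of all genes in cTEC. Late libraries alone gave 1 of the 8 and 5 of all genes in MHCII-low mTEC, and early ones 1 of all genes in MHCII-high mTEC. DESeq2 gave 3 of the 8 in KO against Ski flox Control in cTEC, and 2 in cTEC and 2 in MHCII-low mTEC between the controls, where limma voom and late libraries gave 1 in MHCII-low mTEC. For the differences of KO effects, DESeq2 gave 1 of the 8 for each mTEC subset against cTEC, and late libraries 1 for MHCII-low against cTEC and 1 for MHCII-high against MHCII-low mTEC.

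For MHCII-low mTEC against cTEC in Control (2 of the 8 and 178 of all genes), the 10 CPM filter gave 4 and 355, DESeq2 6 and 1521, early libraries 0 and 1 and late ones 1 and 710. Of all genes limma voom called 1038, all 42 libraries 100 and the set covariate 271. For MHCII-high mTEC against cTEC in Control (2 and 256), DESeq2 gave 6 and 1713, limma voom 4 and 1954, early libraries 0 and 4, late ones 0 and 143 and the compared groups alone 1 and 495, and of all genes the 10 CPM filter gave 466 and the set covariate 612. Between the medullary subsets in Control, DESeq2 gave 1 and 201, late libraries 1 and 113 and limma voom 79 of all genes.

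For MHCII-low mTEC against cTEC in KO (3 and 1308), early libraries gave 0 and 38, late ones 1 and 355, the compared groups alone 0 and 52 and DESeq2 2327 of all genes. For MHCII-high mTEC against cTEC in KO (3 and 3385), early libraries gave 1 and 206 and limma voom 5 of the 8, and of all genes the 10 CPM filter gave 1732, late libraries 557, the Ptprc covariate 1636 and the compared groups alone 442. Between the medullary subsets in KO (4 of all genes), DESeq2 gave 552, limma voom 635, the set covariate 21 and late libraries 227, and all 42 libraries, early libraries, the Ptprc covariate and the compared groups alone each gave 1.

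Leaving out 1 library at a time gave 1 to 2 of the 8 genes and 42 to 215 of all genes for MHCII-low against cTEC in Control, and 1 to 2 and 69 to 224 for MHCII-high. In KO it gave 2 to 5 and 683 to 1568, and 3 to 5 and 1960.0 to 3198. Between the medullary subsets it gave 0 of the 8 in both genotypes, with 0 of all genes in Control and 2 to 11 in KO, and for KO against Control 0 of the 8, with 0 to 4 of all genes in cTEC and 0 in each mTEC subset.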
